A study of Sus scrofa with 6 samples.

Results

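Genes of the proteasome and of the ubiquitin-conjugating enzymes were described in the back muscle longissimus dorsi of healthy female Tibetan pigs. They were chosen by name alone, as gene IDs whose current pig symbol starts with PSMA to PSMG or with UBE2, and 47 of the 25322 genes in the table qualified, 29 with a PSM and 18 with a UBE2 symbol. The low altitude group was 3 pigs held under experimental conditions with daily feeding on the Chengdu plain at an average of 500 m, from a line moved to the lowland several generations earlier. The high altitude group was 3 pigs ranging freely in the highland at an average of 4000 m. Both groups were of 1 breed, sex and muscle, ages are not stated in the labels, and altitude, feeding, place and line history changed together and cannot be told apart. Each library, numbered 1 to 3 in its group, is taken from a separate animal, as the labels give it. Values are FPKM, fragments scaled to gene length and library. Levels of different genes can be set side by side as far as the annotation behind them, which is not given, holds.

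The proteasome is the barrel-shaped protease that degrades proteins tagged with ubiquitin. Its core is built from alpha and beta rings, with the cutting sites inside the beta rings, and a cap on its end recognises the tag, removes it and threads the unfolded protein inside by means of a ring of ATPases. Interferon switches some beta subunits for inducible ones, which gives the immunoproteasome, and also raises the PSME1 and PSME2 activator. Ubiquitin reaches a protein through an activating enzyme (E1), a conjugating enzyme (E2, the UBE2 genes) and a ligase (E3). In skeletal muscle this route breaks down myofibrillar proteins during fasting and disuse, and the ligases FBXO32 and TRIM63 are its best known muscle markers.

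No proteasome or E2 gene passed the test between altitudes. Of the 47 genes, 41 reached an FPKM of 1 in at least 3 of the 6 libraries and were tested, 24 of the proteasome and 17 E2 genes. In limma on log2(FPKM + 1), with p adjusted by the Benjamini-Hochberg (BH) method over the 10005 genes tested, 0 of the 41 had an adjusted p under 0.05, against 23 of all tested genes (0.23%). At an unadjusted p under 0.05 there were 2 of the 41, UBE2O and UBE2W, against 9.42% of all tested genes. Low and high altitude values were fully separate in 7 of the 41, against 16.1% of all tested genes. Of these 7, the low altitude animals were above in PSMB1, PSMD11, PSME4, UBE2H and UBE2O (5 of 41, against 11.3% of all tested genes) and below in UBE2W and UBE2Q2 (2 of 41, against 4.8%). These shares lie near those of all genes.

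The intervals bound how large a difference these libraries could hide. The 95% interval of the log2 fold change, low minus high altitude, lay within −1 to 1, that is within 2-fold either way on this scale, in 38 of the 41 genes, against 85.8% of all tested genes. It lay within −0.5 to 0.5 in 16. The 3 whose interval passed 1 in size were PSMG3, UBE2L6 and UBE2O. Of the 24 proteasome genes 16 had estimates above 0 and 8 below, with a median log2 fold change of 0.048, and of the 17 E2 genes 7 were above 0 and 10 below, with a median of −0.062. The median over all tested genes was 0.041.

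**Figure D1:**
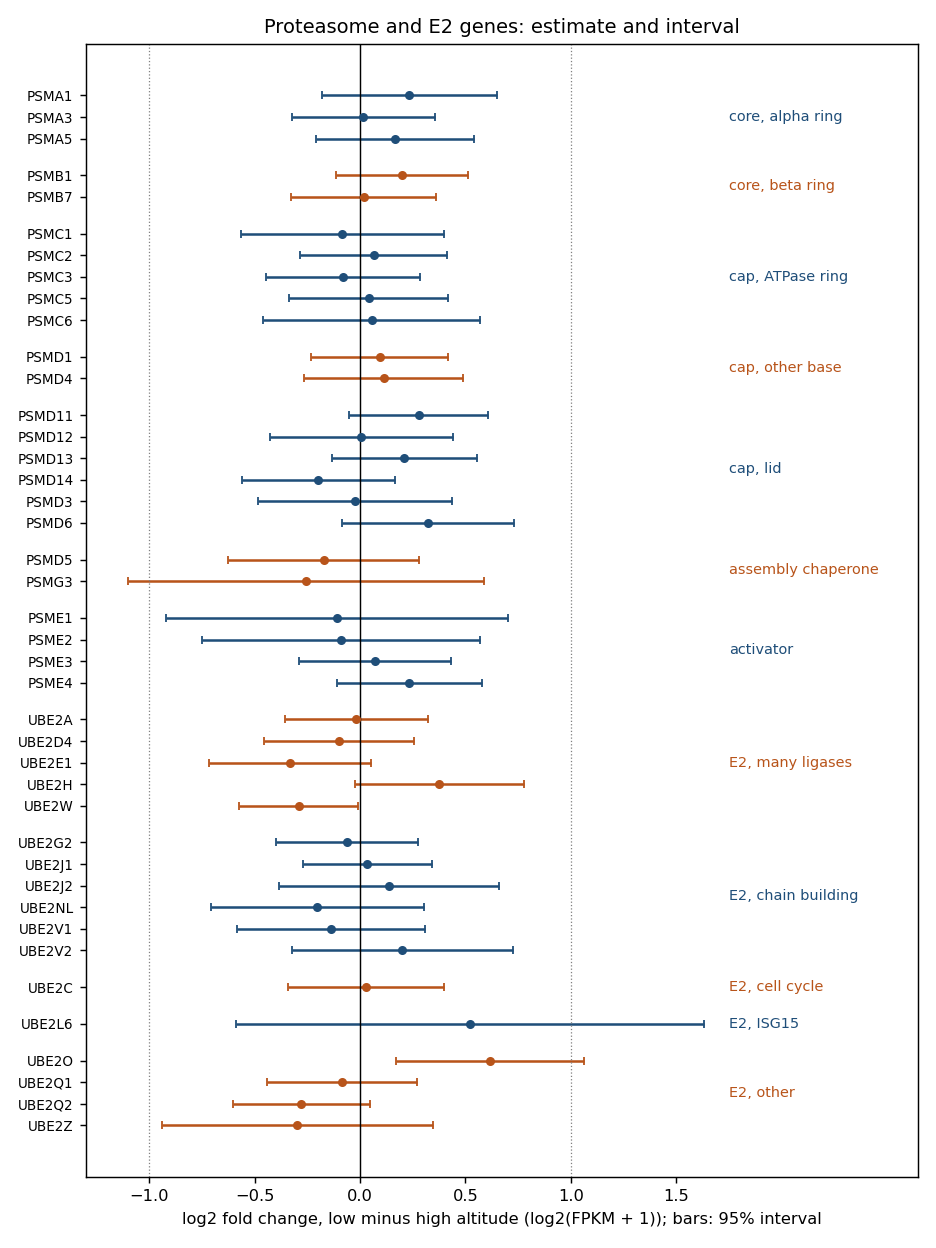
Log2 fold change between low and high altitude (x axis, low minus high on log2(FPKM + 1), points) with its 95% interval (bars) for the 41 tested genes, by role; dotted lines mark −1 and 1. The interval of UBE2O (0.17 to 1.06) and that of UBE2W (−0.58 to −0.01) leave out 0, and 38 of the 41 intervals lie inside the dotted lines.

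A few facts of the libraries bear on every value. FPKM totals ranged from 506611 to 566907 at low and from 526368 to 571855 at high altitude. FPKM keeps no counts, so the absolute depth is unknown, and the spacing of the lowest values put relative depth at 0.877 to 1.00 at low and 0.855 to 1.22 at high altitude. High altitude library 1 stood apart and was the lowest of the 6 in 42.8% of all tested genes, so counts and some estimates are also given without it. Muscle fibre markers were high throughout, with PYGM, the muscle glycogen phosphorylase, at 3803 to 4323 FPKM at low and 3619 to 4195 at high altitude. Other fibre markers varied more: DES, of the intermediate filaments, was at 1458, 1384 and 1684 FPKM at low and at 2882, 912 and 1311 at high altitude, and TNNT1, the slow fibre troponin, was at 788, 1349 and 839.8 at low and at 2251, 609 and 1668 at high altitude. Both were highest in high altitude library 1. The fibre markers CASQ1 and ATP2A1 were lowest in that library, at 1052 and 1544 FPKM. The muscle actin ACTA1 was listed at 0 in 4 libraries and at 35618 in low altitude library 3 and 34168 in high altitude library 2. In 107 genes a library was listed at 0 while another reached an FPKM of 5, and 0 of the 47 genes studied here were among them. Differences in whole-muscle RNA do not tell a change in the number of cells of a type from a change in RNA per cell.

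The 5 tested genes of the proteasome core were at steady levels in both groups. The core genes PSMA2, PSMA4, PSMA6, PSMA7 and PSMB2 to PSMB6 are not analysed here. In the alpha ring, which gates the entrance to the barrel, PSMA1 was at 37.3, 43.9 and 48.9 FPKM in the low altitude animals, against 30.7, 37.8 and 41.8 in the high altitude animals. PSMA3 was at 50.9, 46.8 and 59.4 at low and at 51.2, 51.8 and 51.6 at high altitude. Both overlap between groups. PSMA5 was at 73.7, 68.4 and 69.9 at low and at 52.2, 67.8 and 70.2 at high altitude, where library 1 alone lies below the rest. The log2 fold changes of PSMA1, PSMA3 and PSMA5 were 0.23, 0.02 and 0.17 (limma, BH-adjusted p = 0.715, 0.985 and 0.788).

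In the beta ring, PSMB1 (ENSSSCG00000027257), a structural subunit, was at 79.2, 81.6 and 80.3 FPKM at low altitude, against 63.8, 73.1 and 73.5 at high altitude. The groups do not overlap, but the low altitude mean is only 1.15-fold that at high altitude, and the log2 fold change of 0.20 (SE 0.13, interval −0.12 to 0.51) did not pass (limma, BH-adjusted p = 0.694). PSMB7, which carries the trypsin-like cutting site, was at 64.0, 73.5 and 65.9 at low and at 60.0, 73.6 and 67.7 at high altitude, a log2 fold change of 0.02 (interval −0.33 to 0.36; limma, BH-adjusted p = 0.983). The alpha ring gene PSMA8, which replaces a standard subunit in the testis, was listed at 0 in every library.

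Among genes of the cap 0 of the 13 tested members passed, against 0.23% of all tested genes. The cap genes PSMC4, PSMD2, PSMD7 and PSMD8 are not analysed here. The ATPase ring, which unfolds the substrate, held PSMC5 at 60.9, 57.8 and 58.2 FPKM at low and at 47.9, 66.3 and 59.2 at high altitude. PSMC1 was at 47.1, 47.4 and 47.5 at low and at 38.0, 64.8 and 51.6 at high altitude, so its 3 low altitude values lie inside the spread of the high altitude ones. PSMC3 and PSMC6 averaged 36.3 ± 3.16 and 49.9 ± 3.85 FPKM at low and 38.6 ± 4.82 and 49.2 ± 13.7 FPKM at high altitude (± is SD over 3 animals throughout). PSMC2 was the lowest of the 5 tested genes of the ring, at 12.5 ± 1.08 at low and 11.95 ± 1.47 at high altitude. The 5 log2 fold changes lay between −0.09 and 0.06 (limma, lowest BH-adjusted p = 0.912). Without high altitude library 1, 0 of the 5 were above 0, against 46.3% of all tested genes, with a median of −0.155. The low altitude values then lay wholly below in 2 of the 5, against 18% of all tested genes, and 0 passed, against 0.17%.

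At the base of the cap, PSMD4, a receptor for ubiquitin chains, was at 80.4, 79.5 and 78.6 FPKM at low and at 60.6, 81.1 and 80.8 at high altitude. PSMD1, a scaffold, was at 14.0, 15.0 and 15.1 at low and at 12.3, 13.8 and 15.4 at high altitude. In both genes the lowest value was that of high altitude library 1, and their log2 fold changes were 0.11 and 0.09 (limma, BH-adjusted p = 0.874 and 0.879).

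The lid, whose subunit PSMD14 cuts the ubiquitin chain from the substrate, held the largest estimates of core and cap. PSMD6 was at 41.8, 32.2 and 39.0 FPKM at low and at 25.2, 34.1 and 30.5 at high altitude, overlapping between groups, with a log2 fold change of 0.32 (SE 0.17, interval −0.09 to 0.73; limma, BH-adjusted p = 0.613). PSMD11 (ENSSSCG00000017731), a subunit that holds lid and base together, was at 71.3, 64.3 and 76.2 at low and at 53.6, 61.7 and 58.9 at high altitude. Its groups do not overlap, and its log2 fold change was 0.28 (SE 0.14, interval −0.05 to 0.61; limma, BH-adjusted p = 0.599). PSMD13 averaged 52.9 ± 0.970 FPKM at low and 45.8 ± 6.10 FPKM at high altitude (log2 fold change 0.21; limma, BH-adjusted p = 0.703). PSMD14 lay on the other side, at 18.4, 21.3 and 19.3 at low and at 19.3, 23.9 and 25.4 at high altitude (log2 fold change −0.20; limma, BH-adjusted p = 0.727). PSMD3 and PSMD12 averaged 27.6 and 19.3 at low and 28.4 and 19.5 at high altitude.

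Subunits that enter the complex in equal number were far from equal in FPKM. The annotation behind the values is not given, and its part in differences between genes was not tested. Averaged over the 6 libraries, core genes ran from 40.1 FPKM (PSMA1) to 75.3 (PSMB1) and cap genes from 12.2 (PSMC2) and 14.3 (PSMD1) to 76.8 (PSMD4). The ends of this order held in both groups, with PSMC2 and PSMD1 under 16 and PSMD4 and PSMB1 above 60 FPKM in each library. Within the core, PSMA5 and PSMB7 (means of 67.0 and 67.5) do not differ beyond their spread, and the same holds for PSMC1 and PSMC6 in the ATPase ring (49.4 and 49.6). Summed FPKM of the 18 tested core and cap genes was 837, 831 and 857 at low altitude and 676, 856 and 839.6 at high altitude. That is 0.165, 0.163 and 0.151% of the FPKM total at low and 0.119, 0.1497 and 0.160% at high altitude.

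Most core and cap genes had their lowest value in high altitude library 1. It was the lowest of the 6 libraries in 14 of the 18 genes, against 42.8% of all tested genes, and the highest in 0. With all libraries, 14 of the 18 estimates were above 0 (77.8%, against 57.7% of all tested genes) and the median log2 fold change was 0.059. Without it, 8 of 18 were above 0 (44.4%, against 46.3%) and the median was −0.030. Estimates without it were 0.11 for PSMA1, 0.03 for PSMA5, 0.13 for PSMB1, 0.21 for PSMD6 and −0.31 for PSMD14 on the log2 scale. Those of PSMC1, PSMC6 and PSMD12 were −0.28, −0.15 and −0.16, and 0 of the 18 passed, against 0.17% of all tested genes. After median-of-ratios scaling, which sets each library to a common typical gene, this library was the lowest in 6 of 18, against 22.6% of all tested genes. High altitude library 3 was then also the lowest in 6 of 18, against 13.9%. With each library rescaled to a common total, high altitude library 1 was the lowest in 17 of 18, against 47.1%. After median-of-ratios scaling the summed FPKM of the 18 was 843, 776 and 853 at low and 777, 847 and 765 at high altitude. The 6 fibroblast and matrix genes in the table summed to 983, 1076 and 694 FPKM at low and 254, 966 and 858 at high altitude. High altitude library 1 had the lowest sum. By gene it was the lowest in 4 of the 6, against 42.8% of all tested genes, and not in FBLN1 or PDGFRA. The fibre markers DES and TNNT1, by contrast, were highest in it, while the fibre markers CASQ1 and ATP2A1 were lowest in it. What part the makeup of this sample plays in the lower core and cap values was not tested.

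**Figure D2:**
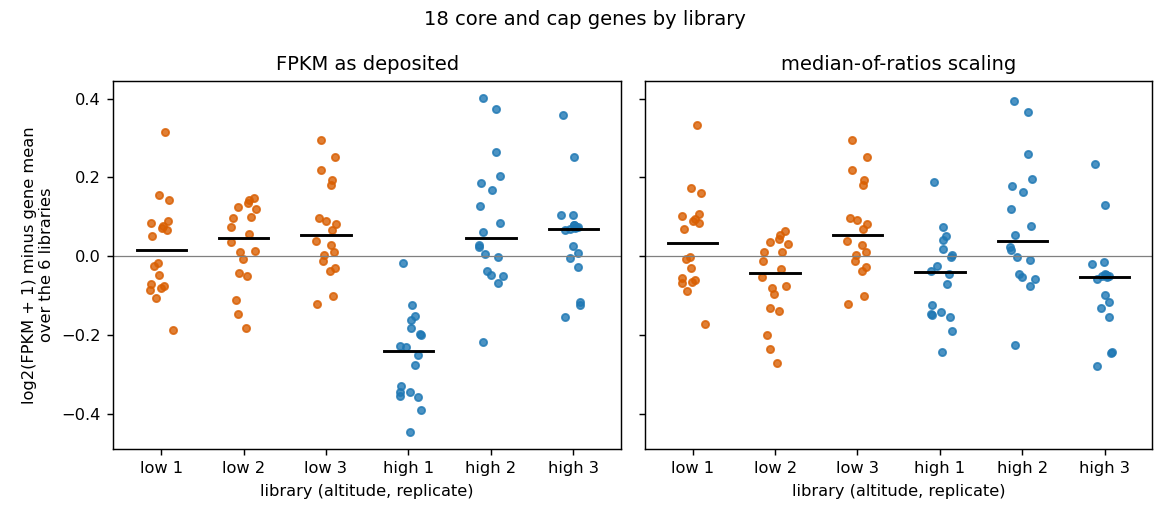
Log2(FPKM + 1) of each of the 18 core and cap genes minus that gene's mean over the 6 libraries (y axis), by library (x axis, low altitude left), with the median as a black line; the left panel uses FPKM as deposited and the right panel median-of-ratios scaling. High altitude library 1 lies lowest in 14 of 18 genes on the left and in 6 of 18 on the right, where high altitude library 3 is also lowest in 6 of 18.

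The immunoproteasome could not be read in this table. Its gene PSMB10 is not analysed here. PSMB9, an inducible beta subunit, was listed at 0 in all 6 libraries, and PSMB8, another, in 5 of 6, with 0.0534 FPKM in high altitude library 1. PSMB11, a beta subunit of the thymus, was also listed at 0 throughout. Of all 25322 genes 32.6% are listed at 0 in every library. In the order of the RefSeq pig annotation (Sscrofa11.1) on chromosome 7, TAP2, PSMB8, TAP1 and PSMB9 follow each other, and the peptide transporter genes TAP1 and TAP2 were at most at 0.241 and 0.663 FPKM. Genes just beyond them were at ordinary levels, with SLA-DMB of the antigen loading machinery at 11.2, 9.11 and 23.0 at low and at 15.1, 13.3 and 14.4 at high altitude, and the chromatin reader BRD2 at 17.2 to 26.9 over the 6 libraries. An entry of 0 in this table need not mean absent RNA. The muscle actin ACTA1 was listed at 0 in low altitude library 1 and at 35618 in low altitude library 3. What such an entry stands for was not settled, so PSMB8 and PSMB9 are given only as listed at 0. No comparison is made.

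The activators of the proteasome split into a steady and a variable pair. PSME1 and PSME2 form the ring that opens the core without ubiquitin and are known interferon targets. PSME1 (ENSSSCG00000002006) was at 41.3, 36.3 and 69.7 FPKM at low altitude, against 80.5, 43.1 and 38.0 at high altitude. PSME2 was at 14.5, 16.9 and 30.5 at low and at 25.05, 18.2 and 19.96 at high altitude. In both genes low altitude library 3 and high altitude library 1 were the highest of the 6 libraries, so the spread ran within the groups. The log2 fold changes were −0.11 (SE 0.35, interval −0.92 to 0.70) and −0.09 (SE 0.28, interval −0.75 to 0.57), with a BH-adjusted p of 0.949 for each in limma. Without high altitude library 1 they were 0.21 and 0.04 (limma, BH-adjusted p = 0.775 and 0.969).

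PSME3, the nuclear activator, was at 12.9, 16.001 and 16.1 FPKM at low and at 13.1, 13.7 and 15.97 at high altitude (log2 fold change 0.07; limma, BH-adjusted p = 0.923). PSME4, a large single-chain activator, was at 19.8, 18.3 and 19.03 at low and at 13.7, 17.6 and 17.1 at high altitude, without overlap (log2 fold change 0.23, SE 0.15, interval −0.11 to 0.58; limma, BH-adjusted p = 0.673; 0.13 without high altitude library 1). Unlike PSME1 and PSME2, these genes differed by at most 1.44-fold over the 6 libraries.

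The libraries with high PSME1 and PSME2 also had high levels of IRF9, a transcription factor of the interferon response that lies near PSME2 in the annotation. IRF9 was at 7.30, 5.54 and 19.2 FPKM at low and at 9.75, 4.88 and 8.004 at high altitude, again highest in low altitude library 3 and next in high altitude library 1. EMC9, between PSME2 and PSME1 in the annotation, varied little, from 7.16 to 8.38 at low and from 7.07 to 8.77 at high altitude. IRF9 and EMC9 are named after their values were seen. Of the 15 tested genes of antigen processing and interferon response, 12 were highest in low altitude library 3 and 0 in high altitude library 1. In the test between altitudes 0 of the 15 passed, against 0.23% of all tested genes. The smallest p of that list belonged to the antiviral genes MX2 and MX1, whose groups do not overlap, unlike those of PSME1 and PSME2. MX2 was at 8.35, 3.21 and 12.9 at low and at 0.312, 0.431 and 1.07 at high altitude (log2 fold change 2.38; limma, BH-adjusted p = 0.136). MX1 was at 9.96, 2.52 and 14.6 at low and at 1.17, 1.45 and 2.45 at high altitude (1.68; limma, BH-adjusted p = 0.383). Both passed without low altitude library 2, with log2 fold changes of 2.86 and 2.31 (limma, BH-adjusted p = 0.0418 and 0.0498).

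Immune cell markers moved with low altitude library 3 too. The 8 macrophage markers in the table summed to 51.0, 62.0 and 116 FPKM at low and to 68.6, 88.9 and 70.8 at high altitude, and 6 of the 7 tested were highest in low altitude library 3. The 8 lymphocyte markers summed to 6.93, 7.98 and 16.8 at low and to 12.4, 14.1 and 12.5 at high altitude, with 4 of 5 tested highest in that library. The T cell gene CD3D and the B cell gene MS4A1 reached at most 2.82 and 0.278 FPKM, both at high altitude. High altitude library 1, with the highest PSME1, had neither sum at the top of its group. The part of immune cells in the PSME1 and PSME2 levels was not tested.

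**Figure D3:**
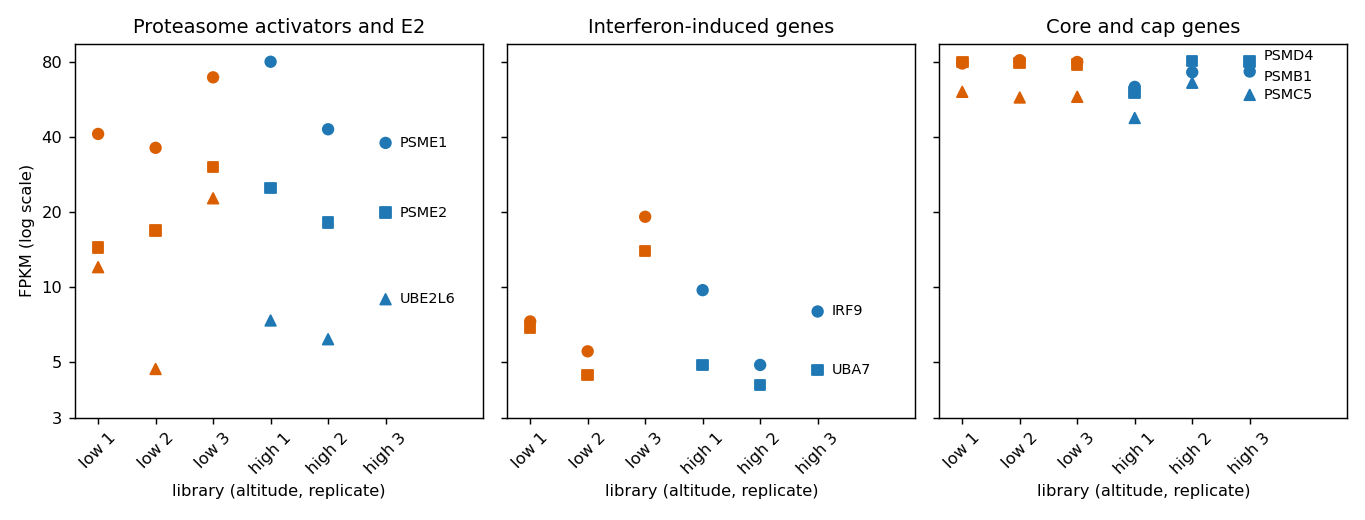
FPKM on a log axis (y) in each library (x axis, low altitude in orange on the left, high altitude in blue) for PSME1, PSME2 and UBE2L6, for the interferon-induced IRF9 and UBA7, and for PSMB1, PSMD4 and PSMC5 of core and cap. PSME1 reaches 69.7 in low altitude library 3 and 80.5 in high altitude library 1, while PSMB1 stays between 63.8 and 81.6.

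Both assembly chaperones in the table were low in level. PSMD5, which escorts ATPase subunits during assembly of the base, was at 5.44, 3.47 and 3.73 FPKM at low and at 3.999, 4.71 and 5.82 at high altitude (log2 fold change −0.17; limma, BH-adjusted p = 0.824). PSMG3, a chaperone of the alpha ring, was at 6.42, 6.21 and 7.28 at low and at 14.0, 4.13 and 8.78 at high altitude. Its high altitude values spread 3.40-fold and enclose those at low altitude (log2 fold change −0.26, interval −1.10 to 0.59; limma, BH-adjusted p = 0.870). Without high altitude library 1 its estimate was 0.11. PSMC3IP, a meiotic recombination factor that only shares the symbol prefix, stayed at or under 0.558 FPKM and was not tested.

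Most core and cap genes varied little between animals of 1 group, and the interferon-linked genes varied much more. The pooled within-group SD of log2(FPKM + 1) had a median of 0.127 over the 5 core genes and 0.168 over the 13 cap genes. All 18 had a mean FPKM between 10 and 100, and the 2557 tested genes in that range had a median SD of 0.223 (quartiles 0.153 and 0.333), with 14 of the 18 below it and PSMC6 (0.296) and PSMC1 (0.268) above it. PSMB1 had the smallest SD of core and cap, 0.082, lower than in all but 3.99% of the genes in that range. PSME1 (0.530) stood at the 90.9th percentile of that range, PSME2 (0.415) at the 84.3rd and UBE2L6 (0.750) at the 95.6th. These are descriptions over genes, which are not independent replicates.

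**Figure D4:**
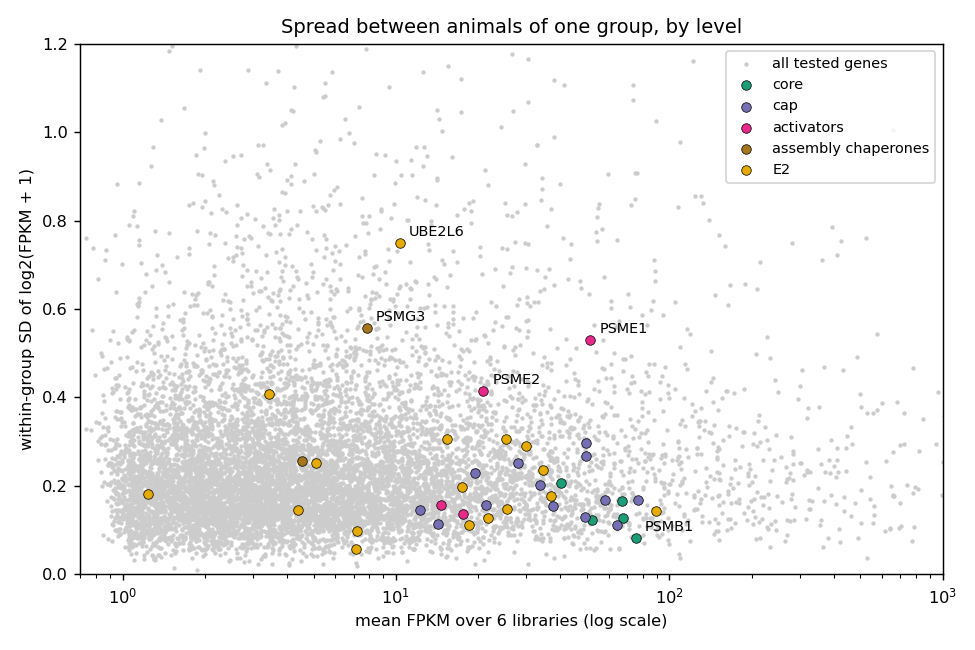
Within-group SD of log2(FPKM + 1), pooled over both altitudes (y axis), against mean FPKM over the 6 libraries on a log axis (x), for all tested genes in grey and the 41 genes studied here in colour; 147 tested genes lie outside the axes. Core genes lie between 0.082 and 0.207, whereas PSME2, PSME1 and UBE2L6 lie at 0.415, 0.530 and 0.750.

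Of the 5 tested E2 genes grouped here as serving many ligases, UBE2H had an estimate above 0 and the other 4 lay below. The group also holds UBE2H and UBE2A, each described below with a single named ligase. UBE2D4 had the highest level of all 41 genes, at 83.5, 90.2 and 85.0 FPKM at low and at 79.3, 103 and 96.4 at high altitude (log2 fold change −0.10; limma, BH-adjusted p = 0.881). UBE2H, an E2 that passes ubiquitin to the CTLH ligase, was at 19.9, 18.9 and 20.6 at low and at 11.9, 16.3 and 17.4 at high altitude. Its groups do not overlap, and its log2 fold change was 0.38 (SE 0.17, interval −0.03 to 0.78; limma, BH-adjusted p = 0.552; 0.22 without high altitude library 1). UBE2W (ENSSSCG00000006177), which adds ubiquitin to the amino terminus of proteins, was at 6.13, 6.63 and 6.25 at low and at 8.004, 7.59 and 8.36 at high altitude. These groups do not overlap either and each is tight, with SDs of 0.258 and 0.389. The log2 fold change of UBE2W was −0.29 (SE 0.12; unadjusted p = 0.0452 and BH-adjusted p = 0.506 in limma).

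UBE2E1, a small E2 of wide use, was at 38.1, 31.8 and 28.1 FPKM at low and at 40.9, 37.7 and 45.2 at high altitude. Low altitude library 1 lies just above high altitude library 2, so the groups overlap, and the log2 fold change was −0.33 (SE 0.16, interval −0.72 to 0.05; limma, BH-adjusted p = 0.582). UBE2A, the partner of the RAD18 ligase in DNA damage tolerance, averaged 21.5 ± 1.43 at low and 21.8 ± 2.36 at high altitude.

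The clearest single estimate belonged to UBE2O (ENSSSCG00000029901), a large enzyme that acts as E2 and E3 at once and clears unassembled proteins. It was at 6.19, 6.09 and 6.67 FPKM at low altitude, against 2.63, 4.23 and 4.73 at high altitude. Every low altitude value lies above every high altitude value, and the means of 6.32 ± 0.310 and 3.86 ± 1.10 (SD, n = 3) give a ratio of 1.64. The log2 fold change was 0.62 (SE 0.19, interval 0.17 to 1.06), and it did not pass over all genes (unadjusted p = 0.0138 and BH-adjusted p = 0.382 in limma). High altitude library 1 had the lowest value, and without it the log2 fold change was 0.42 (limma, BH-adjusted p = 0.273). UBE2Q2 was at 17.3, 18.1 and 14.8 at low and at 20.7, 19.5 and 21.2 at high altitude, without overlap (log2 fold change −0.28, interval −0.60 to 0.05; limma, BH-adjusted p = 0.587). Its relative UBE2Q1 averaged 24.5 ± 0.709 at low and 26.3 ± 3.70 at high altitude. UBE2Z, charged by UBA6, was at 2.53, 3.40 and 2.72 at low and at 2.61, 6.37 and 3.03 at high altitude, where library 2 alone is high.

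**Figure D5:**
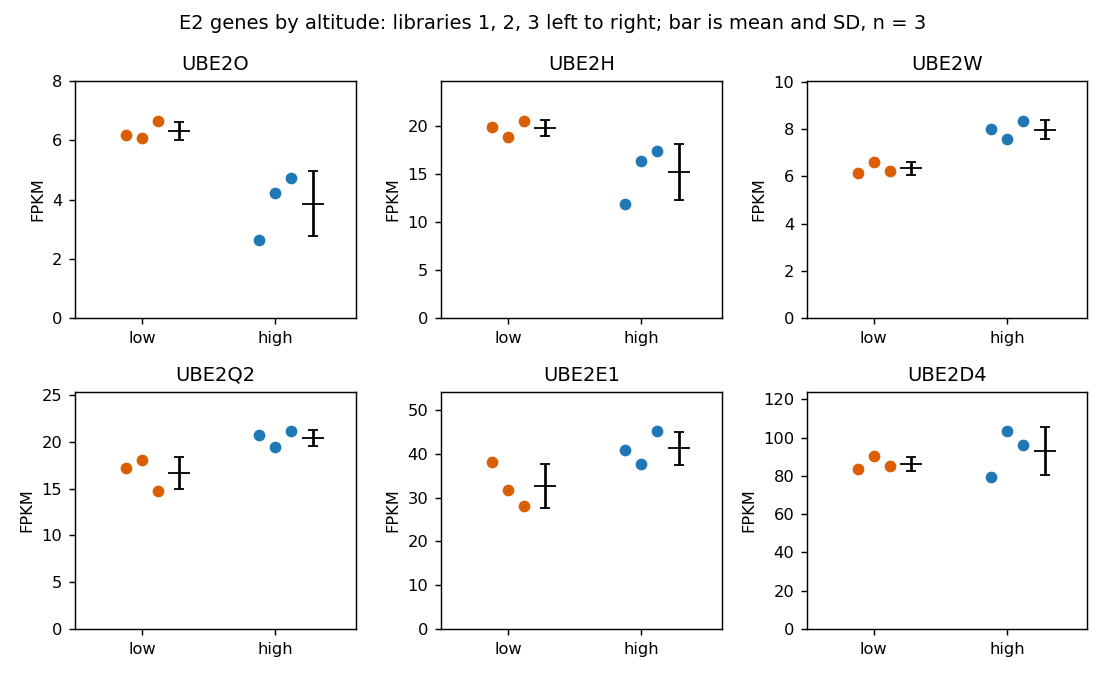
FPKM of 6 E2 genes (y axes from 0) in each animal at low (orange, left) and high altitude (blue, right), libraries 1 to 3 left to right, with mean and SD beside them (n = 3). The groups do not overlap in UBE2O, UBE2H, UBE2W and UBE2Q2 and overlap in UBE2E1 and UBE2D4, and none of the 6 passed the test.

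Of the 6 tested E2 enzymes that build chains 0 had groups without overlap, against 16.1% of all tested genes, which is about 1 in 6. UBE2V1 and UBE2V2, inactive variants that direct UBE2N, averaged 32.6 ± 4.09 and 26.9 ± 3.69 FPKM at low and 36.3 ± 7.02 and 23.7 ± 6.35 at high altitude. UBE2NL was at 24.7, 33.8 and 24.2 at low and at 24.8, 32.6 and 38.7 at high altitude (log2 fold change −0.20; limma, BH-adjusted p = 0.813). No gene ID used here carries the symbol UBE2N. UBE2NL is named as its close copy, so reads may be shared, and whether this entry is UBE2N itself was not settled. Reads may also be shared for UBE2D4 and UBE2E1, whose families hold near-identical members. UBE2J1, UBE2J2 and UBE2G2, which serve degradation at the endoplasmic reticulum, averaged 7.32, 15.9 and 4.25 at low and 7.12, 14.7 and 4.49 at high altitude. Over the 6 chain-building genes the log2 fold changes lay between −0.20 and 0.20.

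The cell cycle E2 genes were near the floor. UBE2C, the E2 of the anaphase-promoting complex, was at 1.08, 1.67 and 1.03 FPKM at low and at 1.36, 0.981 and 1.28 at high altitude. UBE2T, of DNA crosslink repair, was at most at 0.0479 and was not tested.

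UBE2L6 (ENSSSCG00000023379), the E2 for the ubiquitin-like protein ISG15 and itself induced by interferon, was the most variable of the 41 genes. It was at 12.1, 4.70 and 22.8 FPKM at low and at 7.36, 6.19 and 8.96 at high altitude. The low altitude values run from below to above all the high altitude values, with low altitude library 3 on top. Its log2 fold change of 0.52 had an interval of −0.59 to 1.63 (SE 0.47; limma, BH-adjusted p = 0.770). Leaving out low altitude library 3 gave 0.03, and leaving out low altitude library 2 gave 1.06. UBA7, the E1 of the same modifier, was at 6.90, 4.45 and 14.0 at low and at 4.88, 4.07 and 4.66 at high altitude, with low altitude library 3 again highest (log2 fold change 0.65; limma, BH-adjusted p = 0.608). With library 3 of the low altitude group left out it was 0.25, and with library 2 left out 0.98.

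Without high altitude library 1, 13 of the 17 E2 estimates lay below 0, with a median log2 fold change of −0.139 against −0.023 over all tested genes. The groups then did not overlap in 8 of 17, with low altitude above in 2 (11.8%, against 14.3% of all tested genes) and below in 6 (35.3%, against 18%), and 0 passed, against 0.17% of all tested genes. With all libraries the E2 groups did not overlap in 4 of 17 (against 16.1% of all tested genes), above in 2 (against 11.3%) and below in 2 (against 4.8%). Without that library the estimate was −0.37 for UBE2NL, −0.50 for UBE2Z and −0.21 for UBE2D4. Summed FPKM of the 17 genes was 337, 362 and 339.6 at low and 307, 381 and 396 at high altitude.

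Among genes that feed or assist the proteasome none passed either, against 0.23% of all tested genes. Of 12 listed genes of ubiquitin and E1 enzymes 8 were in the table, 7 were tested and 0 passed, with a median log2 fold change of 0.11. UBB, a main source of ubiquitin, was at 566, 528 and 691 FPKM at low and at 469.9, 414 and 573 at high altitude (log2 fold change 0.30; limma, BH-adjusted p = 0.657). Of 20 listed partners 15 were tested and 0 passed, with a median of 0.04. Their groups did not overlap in 4 of the 15, against 16.1% of all tested genes. The low altitude animals were above in 3, against 11.3%, and below in 1, against 4.8%. UCHL5, a deubiquitinase bound to the cap, was at 10.8, 11.6 and 9.81 at low and at 8.07, 9.10 and 9.11 at high altitude, without overlap (0.27; limma, BH-adjusted p = 0.587). VCP, the segregase that pulls tagged proteins from membranes and complexes, was at 63.4, 63.3 and 73.1 at low and at 42.4, 60.8 and 57.2 at high altitude, also without overlap (0.33; limma, BH-adjusted p = 0.620).

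Among genes that control proteasome expression 4 of 8 listed were tested and 0 passed, against 0.23% of all tested genes. In 2 of the 4 the low altitude group lay wholly above, against 11.3%. NFE2L1, the factor that raises proteasome genes when the protease is impaired, was at 33.7, 30.9 and 41.7 FPKM at low and at 32.0, 29.95 and 28.9 at high altitude (log2 fold change 0.21; limma, BH-adjusted p = 0.715). NFE2L2, its relative in the antioxidant response, was at 21.8, 18.5 and 20.3 at low and at 13.5, 15.7 and 18.1 at high altitude, without overlap (0.34; limma, BH-adjusted p = 0.552). MAFF, a small partner of both, was at 9.81, 8.30 and 23.6 at low and at 3.70, 2.66 and 2.68 at high altitude. Its groups do not overlap, and its log2 fold change of 1.76 did not pass (SE 0.36; limma, BH-adjusted p = 0.183).

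Ubiquitin ligases of muscle, listed with the deubiquitinase USP19, included the large estimates of FBXO32 and TRIM63. Of 19 listed genes 14 were tested, and 11 had estimates above 0, with a median log2 fold change of 0.24. Of the 14, 0 passed over all genes, against 0.23% of all tested genes, though 5 had an unadjusted p under 0.05, against 9.42%. The low altitude group lay wholly above in 7 of the 14, against 11.3%, USP19 among them. High altitude library 1 was the lowest in 11 of the 14, against 42.8% of all tested genes, and without it 9 were above 0, the median was 0.085 and the low altitude group again lay wholly above in 7 (against 14.3%). FBXO32 was at 58.3, 25.7 and 74.1 FPKM at low and at 9.90, 8.44 and 14.8 at high altitude, a log2 fold change of 2.06 (interval 1.14 to 2.99; limma, BH-adjusted p = 0.155). Without low altitude library 2 it passed (limma, BH-adjusted p = 0.0482). TRIM63 was at 193, 133 and 406 at low and at 31.6, 61.2 and 84.9 at high altitude, a log2 fold change of 1.97 (interval 0.84 to 3.11; limma, BH-adjusted p = 0.282). The ligase list was read with earlier results of these libraries known and is no independent evidence. Set beside these, the largest estimate of the 18 core and cap genes was 0.32 and the upper end of their intervals reached 0.73.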

How the data were processed

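RNA sequencing values of longissimus dorsi were read for 6 pigs, 3 per altitude. The authors deposited FPKM per Ensembl pig gene for the 6 libraries. The submitters' processing notes name TopHat2 2.0.11 and Cufflinks 2.2.1 without saying what each did. Libraries were strand-specific by dUTP, per the labels' protocols. The sources used here give no genome build, annotation or filters. Because FPKM keeps no counts, neither a count model nor a counting interval was applied.

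Symbols came from a table of Ensembl IDs. It holds 76 IDs with the named prefixes, and the other 29 are not analysed here. Genes that reached an FPKM of 1 in 3 or more libraries were tested on log2(FPKM + 1) with limma 3.58.1 in R 4.3.3 (trend, two-sided, low minus high altitude, Benjamini-Hochberg over 10005 genes, threshold 0.05). Fitted changes understate those of low genes. Lists are described by counts and medians only. In each role the 3 members with the smallest p and the 2 with the highest mean were named, with all activators and the 2 smallest p of each related list. NFE2L1 was added after its values were seen. The members and lists were chosen with earlier results of these data known. Alternatives were pseudocounts of 0.1 and 0.5, other filters and scalings, other limma settings, a replicate block, and leaving out each library. Values of 1 gene of the interferon list are not reported here.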

Additional observations from a re-analysis of the deposited data

How the results depend on the processing

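No proteasome or E2 gene passed the threshold under any of the 17 alternatives. The lowest adjusted p of a member was 0.232 (limma, Benjamini-Hochberg), for UBE2O with array weights. The count of changed genes over the whole table, 23, was 38 with array weights, 9 with median-of-ratios scaling, 6 with no filter on low values and 10 with quantile normalization, and 4 to 21 when 1 library was left out. Of the 23, 16 were higher and 7 lower at low altitude, against 26 and 6 when libraries were rescaled to a common total. With 3 animals per group and unknown depth, changes well under 2-fold are hard to see in single genes. The replicate numbers are not said to pair the animals. Correlations of same-numbered deviations were −0.0154, 0.0949 and −0.141, and those of unlike numbers ran from −0.151 to 0.161. With 3 animals per group they cannot decide on pairing. A replicate block gave 19 changed genes and 0 members. Medians of core, cap, activators, chaperones and E2 genes moved by less than the spread between libraries under each alternative, but some crossed 0. The cap median, 0.055, was −0.048 under array weights, and −0.086 if high altitude library 1 was left out. That of the activators, −0.009, was 0.069 with array weights and 0.062 rescaled to a common total. When 1 library was left out it was −0.18 to 0.14, and that of the E2 genes was −0.14 to 0.017. The median over all tested genes moved too, from 0.041 to −0.00082 with array weights and to 0.101 rescaled to a common total. It was −0.023 to 0.1 when 1 library was left out.

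Of the 41 tested members 21 kept the sign of their estimate under each alternative run. The other 20 crossed 0 in at least 1 alternative, and 0 of them passed on either side, and the counts of estimates above and below 0 include them. With median-of-ratios scaling the log2 fold change was −0.033 for PSMA3, −0.031 for PSMB7, −0.0064 for PSMC5, −0.040 for PSMD12, −0.0089 for UBE2J1 and −0.0038 for UBE2C. With quantile normalization it was −0.0091 for PSMA3, −0.026 for PSMB7, −0.042 for PSMD12, −0.025 for UBE2J1 and −0.0023 for UBE2C. With array weights it was −0.052 for PSMB7, −0.012 for PSMC2, −0.048 for PSMC5, −0.063 for PSMC6, −0.13 for PSMD12, 0.040 for PSMG3, 0.11 for PSME1 and −0.027 for UBE2J2. Rescaled to a common total it was 0.050 for PSMD3 and 0.055 for UBE2A. Leaving out each library in turn gave −0.078 to 0.092 for PSMA3, −0.060 to 0.086 for PSMB7, −0.28 to 0.094 for PSMC1, −0.034 to 0.12 for PSMC2, −0.18 to 0.0013 for PSMC3, −0.086 to 0.14 for PSMC5 and −0.15 to 0.25 for PSMC6. It gave −0.026 to 0.18 for PSMD4, −0.16 to 0.14 for PSMD12, −0.12 to 0.16 for PSMD3, −0.67 to 0.11 for PSMG3, −0.39 to 0.21 for PSME1 and −0.40 to 0.12 for PSME2. Among E2 genes it gave −0.11 to 0.032 for UBE2A, −0.14 to 0.017 for UBE2G2, −0.012 to 0.10 for UBE2J1, −0.092 to 0.27 for UBE2J2, −0.014 to 0.37 for UBE2V2, −0.098 to 0.099 for UBE2C and −0.50 to 0.019 for UBE2Z. The cause of these sign changes was not tested. Outside the members, FBXO32, MX1 and MX2 passed without low altitude library 2 (limma, Benjamini-Hochberg adjusted p = 0.0482, 0.0498 and 0.0418).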
